A study of Rattus norvegicus with 8 samples.

Results

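The genes of the proteasome were followed in the rat *substantia nigra* (SN) under overexpression of human α-synuclein. They are the genes whose array probe carries a RefSeq accession with a rat symbol of the form Psma, Psmb, Psmc, Psmd, Psme, Psmf or Psmg and a number. The form matched 48 genes (50 probes) of the 16678 genes that the array names. Of these, 47 genes (49 probes) were above background on at least 1 array and were tested. In all, 43 of the 47 encode parts of the proteasome, its activators, its inhibitor or its assembly factors, and 4 share only the form of the name or are relatives.

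RNA was compared between 4 samples labelled AAV-aSyn and 4 labelled AAV-Null, each on an array of its own. The rats were adult female Sprague Dawley rats, 3 months old at surgery, with a unilateral injection into the SN, and the SN of the injected side was dissected 20 weeks later. AAV-aSyn is an AAV6 vector carrying wild-type human α-synuclein, injected at 5.2e10 vg/µL, and AAV-Null is its control vector, injected at 5.3e9 vg/µL. The transgene and the titre cannot be told apart in this design. The promoter that drives the transgene is not given in the sources used here. The dissected tissue holds all the cells of the SN, so fewer cells of a type and less RNA per cell cannot be told apart.

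The proteasome is the cell's main machine for degrading proteins tagged with ubiquitin. Its barrel, the 20S core, is a stack of rings: outer rings of α subunits that gate entry, and inner rings of β subunits that hold the proteolytic sites. The 19S cap recognises ubiquitin, removes it, unfolds the substrate with a ring of ATPases and feeds it into the core. Interferon replaces the catalytic subunits *Psmb6*, *Psmb7* and *Psmb5* by *Psmb9*, *Psmb10* and *Psmb8*, which gives the immunoproteasome, and raises the PA28 activator. α-Synuclein is a substrate of the proteasome, and impaired proteasome function has long been studied in Parkinson's disease.

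The promoters of the 3 immunoproteasome genes are shown because *Psmb8* and *Psmb9* had the widest spread between AAV-aSyn arrays, and *Psmb5* is shown as the constitutive counterpart of *Psmb8*. The sequences are from RefSeq (GRCr8), which had an entry for 39 of the 43 genes. Each is the 250 bases before the start site, 5′ to 3′ on the gene's strand. Capitals mark a match, on either strand, to the core of the antioxidant response element (TGACNNNGC, the site of NRF1 and NRF2), to the gamma-activated site (TTCNNNGAA, the site of STAT factors) or to the core of the interferon-stimulated response element (GAAANNGAAA, the site of IRF factors).
Psmb8, chr20:4657032-4657281, minus strand: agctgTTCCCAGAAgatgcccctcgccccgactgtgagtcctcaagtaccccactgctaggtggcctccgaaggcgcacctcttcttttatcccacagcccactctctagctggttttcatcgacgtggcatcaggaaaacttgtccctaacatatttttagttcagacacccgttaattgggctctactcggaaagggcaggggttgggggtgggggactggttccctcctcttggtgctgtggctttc
Psmb9, chr20:4668750-4668999, plus strand: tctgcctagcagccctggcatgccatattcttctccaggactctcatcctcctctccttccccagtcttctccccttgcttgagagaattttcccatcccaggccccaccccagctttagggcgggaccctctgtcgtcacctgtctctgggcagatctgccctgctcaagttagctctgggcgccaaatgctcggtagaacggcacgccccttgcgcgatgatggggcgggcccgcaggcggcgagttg
Psmb10, chr19:50743293-50743542, minus strand: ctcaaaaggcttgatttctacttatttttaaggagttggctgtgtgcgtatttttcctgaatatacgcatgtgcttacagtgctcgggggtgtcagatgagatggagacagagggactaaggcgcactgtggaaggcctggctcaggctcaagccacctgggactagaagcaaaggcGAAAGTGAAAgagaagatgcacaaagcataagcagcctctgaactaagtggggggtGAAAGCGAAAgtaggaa
Psmb5, chr15:32047380-32047629, minus strand: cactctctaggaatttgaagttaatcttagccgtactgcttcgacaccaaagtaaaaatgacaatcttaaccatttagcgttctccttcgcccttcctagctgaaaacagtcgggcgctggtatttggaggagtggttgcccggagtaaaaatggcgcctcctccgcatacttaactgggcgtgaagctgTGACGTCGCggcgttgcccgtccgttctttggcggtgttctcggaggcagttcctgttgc

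*Psmb10* held 2 interferon-stimulated response elements, at -73 to -64 and at -17 to -8 from the start. *Psmb8* held a gamma-activated site at -245 to -237, and a further interferon-stimulated response element began at -4 and ran past the start, beyond the bases printed. *Psmb9* held none of the 3 motifs, and *Psmb5* held an antioxidant response element at -60 to -52. No match to one motif overlapped a match to another in these promoters. In windows from 250 bases before to 50 bases after the start, the antioxidant response element was found in 8 of the 39 proteasome genes (20.5%) and in 12.1% of the 33469 promoters of the table. The gamma-activated site was found in 4 of the 39 (10.3%) and in 8.87% of all promoters. The interferon-stimulated response element was found in 7 of the 39 (17.9%) and in 3.92% of all promoters. *Psmb8* and *Psmb9* lie close together on chromosome 20, in the major histocompatibility complex. Between them lies *Tap1*, a peptide transporter gene that starts next to *Psmb9* on the opposite strand.

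The share of spots well above background was 74.8% to 77.5% per array. Intensities were quantile normalized on the log2 scale. Each single gene's level below is the log2 intensity of its brightest probe, which can be compared between arrays but not between genes. Differences are AAV-aSyn minus AAV-Null, with the standard error (SE), p-value and 95% interval of limma's moderated test. These p-values were adjusted over all 33853 probes tested. An exact permutation test over the 70 splits of the arrays, two-sided, is given for single genes, and its smallest possible p is 0.0286. The labels number the samples of a group without naming the rat each came from, and the sources used here do not settle whether each came from a different rat, so the p-values measure only the spread between these samples, which may be technical.

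One control array stood apart from the rest. AAV-Null replicate 3 was the array farthest from the others of its group for 30 of the 43 proteasome genes (69.8%), and for 45.8% of all probes, where the other AAV-Null arrays held 10.3% to 27.5%. The interquartile range of the proteasome genes' deviations from their means was 0.279 on this array and 0.060 to 0.156 on the other 7. *Psmb7* (13.72 against 12.97 to 13.11 on the other AAV-Null arrays) and *Psme3* (11.48 against 10.68 to 10.82) were high on it, and *Psmd5* (9.62 against 9.95 to 10.17) and *Psmg4* (12.14 against 12.46 to 12.56) were low. Results are therefore given with and without this array where it decides them.

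**Figure D1:**
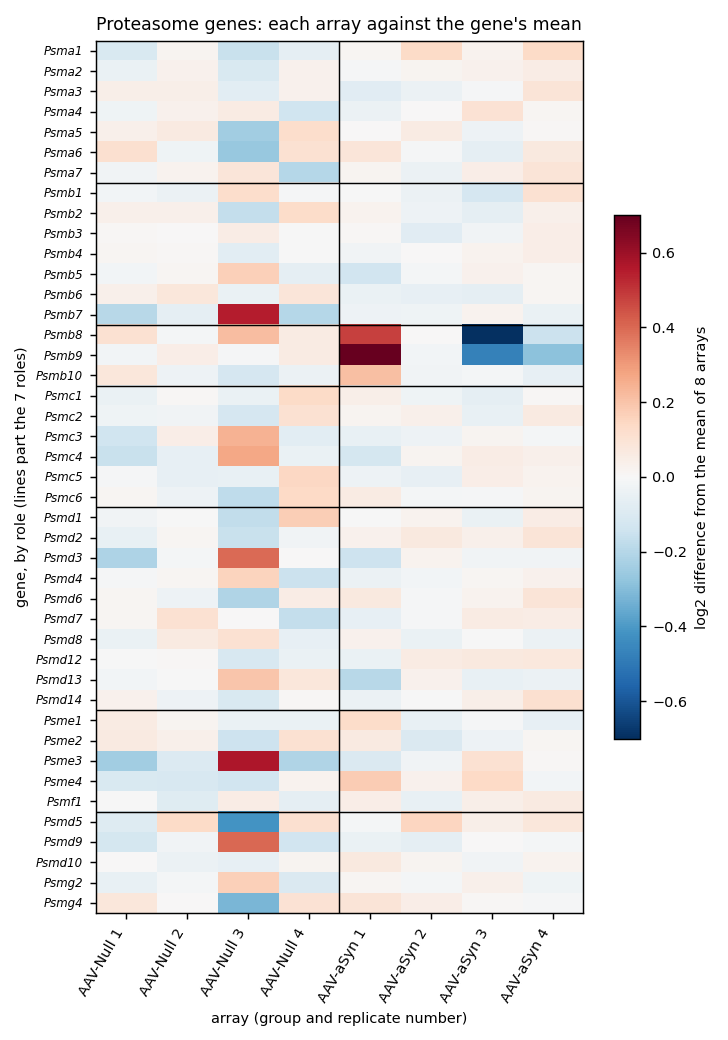
Each row is 1 of the 43 proteasome genes, ordered by role, each column is 1 array, and the colour is the array's log2 difference from the gene's mean over the 8 arrays. AAV-Null replicate 3 is the column with the most deviations in both directions, and *Psmb8* and *Psmb9* stand out on AAV-aSyn replicates 1 and 3.

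No proteasome gene passed the test between AAV-aSyn and AAV-Null rats. Of the 49 probes, 0 had an unadjusted p under 0.05 by limma, where 5.64% of all probes tested had one, and 0 passed the adjustment, which 0.0148% of all probes did. The smallest adjusted p among the members was 0.909. Of the 43 genes, 23 were higher and 20 were lower in AAV-aSyn rats, with a median difference of 0.0091 on the log2 scale, beside a median of 0.0083 over all probes tested. The groups of arrays did not overlap for 1 of the 43 genes, *Psmd2*, beside 3.83% of all probes.

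The intervals were narrow for most of the complex. For 41 of the 43 genes the 95% interval of the difference lay within 0.5 on the log2 scale, that is within 1.41-fold either way, and for 27 of them within 0.25, or 1.19-fold. The exceptions to the wider limit were *Psmb8* and *Psmb9*. The median within-group SD of the 43 genes was 0.0886, beside 0.126 for the 13361 probes in the same range of intensity, and 33 of the 43 lay below that value. The moderated test draws such small spreads towards those of all probes, so its intervals are wider than the genes' own spreads alone would give.

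**Figure D2:**
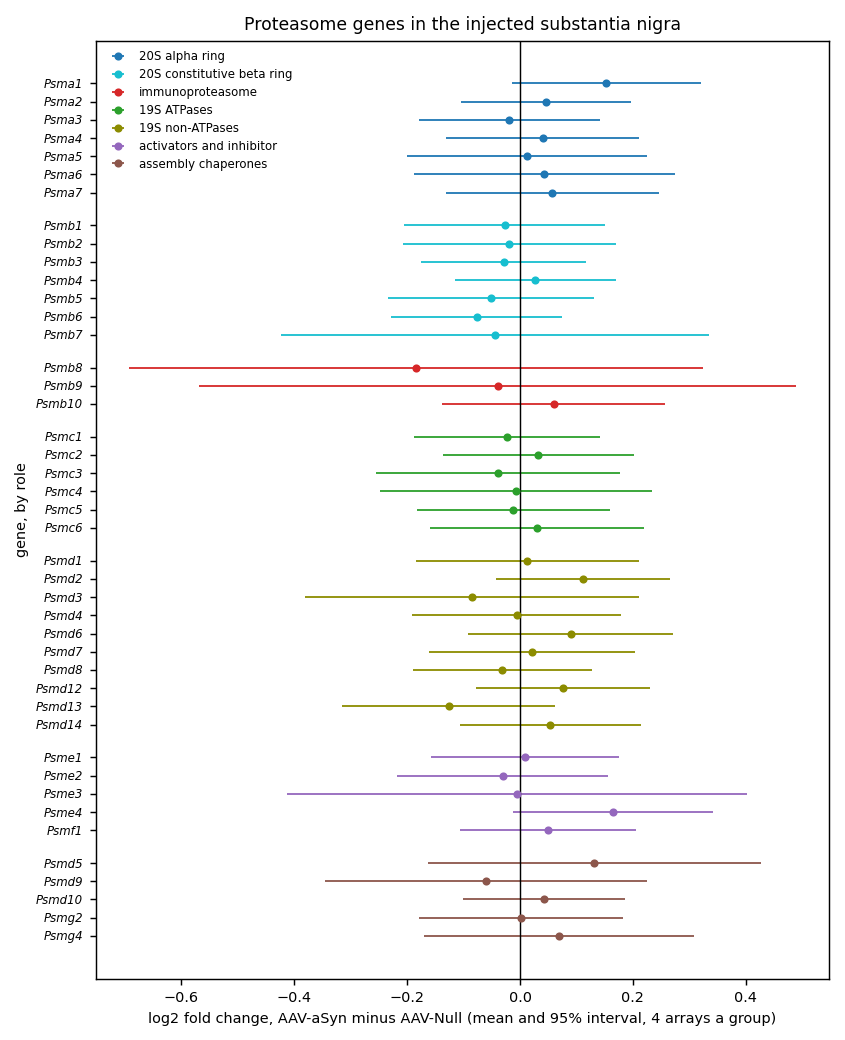
Points are the log2 fold change of each of the 43 proteasome genes, AAV-aSyn minus AAV-Null, and bars are 95% intervals from limma with 4 arrays a group. Every interval holds 0, and those of *Psmb8* and *Psmb9* are the widest.

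The α ring of the 20S core had 6 genes higher and 1 lower in AAV-aSyn rats, with a median log2 difference of 0.043, and none passed the test. *Psma1*, an α subunit, had the largest difference of the ring. Its log2 levels were 12.996, 13.13, 12.95 and 13.04 in AAV-Null rats (replicates 1 to 4, in that order here and below) and 13.12, 13.24, 13.13 and 13.24 in AAV-aSyn rats. The groups met at one point only, where AAV-aSyn replicate 1 lay just under AAV-Null replicate 2. The difference was 0.15 (SE 0.073, 95% interval -0.015 to 0.32, limma p = 0.0691, adjusted p = 0.919, exact permutation p = 0.0571). The lowest of the ring was *Psma3*, at -0.019, and at -0.047 without AAV-Null replicate 3. Without that array the ring's median was 0.017, and *Psma5* and *Psma6* were then among the lower genes, which made 4 higher and 3 lower.

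The constitutive β ring had 1 gene higher and 6 lower, with a median of -0.029. Without AAV-Null replicate 3 it had 3 higher and 4 lower, with a median of -0.0031. The highest with all arrays was *Psmb4*, a structural subunit, at 0.027, and at 0.0076 without that array. *Psmb6*, which carries the caspase-like site, was the lowest with all arrays. Its log2 levels were 14.24, 14.29, 14.16 and 14.29 in AAV-Null and 14.16, 14.15, 14.14 and 14.22 in AAV-aSyn rats. AAV-Null replicate 3 lay among the AAV-aSyn arrays, and the other AAV-Null arrays lay above all 4 of them. The difference was -0.077 (SE 0.066, 95% interval -0.23 to 0.075, limma p = 0.276, exact permutation p = 0.0857), and without that array -0.11 (limma p = 0.0921). *Psmb5*, the chymotrypsin-like subunit, differed by -0.051 with all arrays and by -0.0031 without AAV-Null replicate 3. *Psmb7*, the trypsin-like subunit, differed by -0.045 with all arrays and by 0.13 without AAV-Null replicate 3 (limma adjusted p = 0.654), so the sign of its difference rested on that array. Taken as 1 structure, the 14 genes of the 20S core were 7 higher and 7 lower, with a median of -0.0032 with all arrays and 0.0022 without that one.

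None of the 3 immunoproteasome genes passed the test, and *Psmb8* and *Psmb9* had the widest spread of the whole complex. *Psmb8* replaces *Psmb5* as the chymotrypsin-like subunit. Its log2 levels were 9.33, 9.20, 9.43 and 9.27 in AAV-Null and 9.70, 9.22, 8.52 and 9.07 in AAV-aSyn rats. The AAV-aSyn arrays thus reached above and below all the AAV-Null arrays, with replicate 1 highest and replicate 3 lowest. The difference was -0.18 (SE 0.22, 95% interval -0.69 to 0.32, a fold of 0.619 to 1.25, limma p = 0.427, adjusted p = 0.973, exact permutation p = 0.600).

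*Psmb9*, which replaces *Psmb6*, had log2 levels of 10.10, 10.16, 10.11 and 10.18 in AAV-Null and 10.82, 10.10, 9.64 and 9.83 in AAV-aSyn rats. The order of the AAV-aSyn arrays was the same at its ends: replicate 1 was highest and replicate 3 lowest. The difference was -0.040 (SE 0.23, 95% interval -0.57 to 0.49, limma p = 0.867, adjusted p = 0.993, exact permutation p = 0.914). Single AAV-aSyn arrays turned the sign of both differences. Without AAV-aSyn replicate 3 the differences were 0.018 for *Psmb8* and 0.11 for *Psmb9*, and without replicate 4 that of *Psmb9* was 0.050. Without AAV-aSyn replicate 1 the sign was kept, at -0.37 and -0.28, and *Psmb9* then had an unadjusted limma p of 0.0465.

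*Psmb10*, which replaces *Psmb7*, varied less. On the log2 scale it stood at 12.92, 12.80, 12.72 and 12.80 in AAV-Null and 13.05, 12.81, 12.83 and 12.78 in AAV-aSyn rats, and AAV-aSyn replicate 1 was again highest. The difference was 0.059 (SE 0.086, 95% interval -0.14 to 0.26, limma p = 0.510, exact permutation p = 0.514). It was 0.029 without AAV-Null replicate 3 and -0.0015 without AAV-aSyn replicate 1.

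The spread of *Psmb8* and *Psmb9* belonged to the AAV-aSyn arrays. The SD of *Psmb8* was 0.097 among AAV-Null and 0.49 among AAV-aSyn arrays, and that of *Psmb9* was 0.040 and 0.51. The ratio of the SDs, AAV-aSyn over AAV-Null, was 5.03 for *Psmb8* and 13.04 for *Psmb9*, and a larger ratio was found for 0.591% and 0.0299% of the 13361 probes in the same range of intensity. For *Psmb10* it was 1.49, and 9.90% of those probes had a larger ratio. The other direction was the common one: 32 of the 43 proteasome genes, and 78.3% of the probes in that range, had the larger SD among AAV-Null arrays. With AAV-Null replicate 3 left out, the 43 genes divided into 22 with the larger SD among AAV-Null and 21 among AAV-aSyn arrays. In the same range of intensity, 1.09% and 0.906% of the probes had a larger SD among AAV-aSyn arrays than *Psmb8* and *Psmb9*. Among AAV-Null arrays 74.7% and 97.0% did, so the ratio of *Psmb9* rests in part on a small AAV-Null SD. AAV-aSyn replicate 1 stood at 10.82 for *Psmb9*, beside 9.64 to 10.10 on the others. The range runs from 9.24 to 16.68, and both genes lie towards its dim end. These shares were not taken with an array left out. The difference in spread was not tested.

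**Figure D3:**
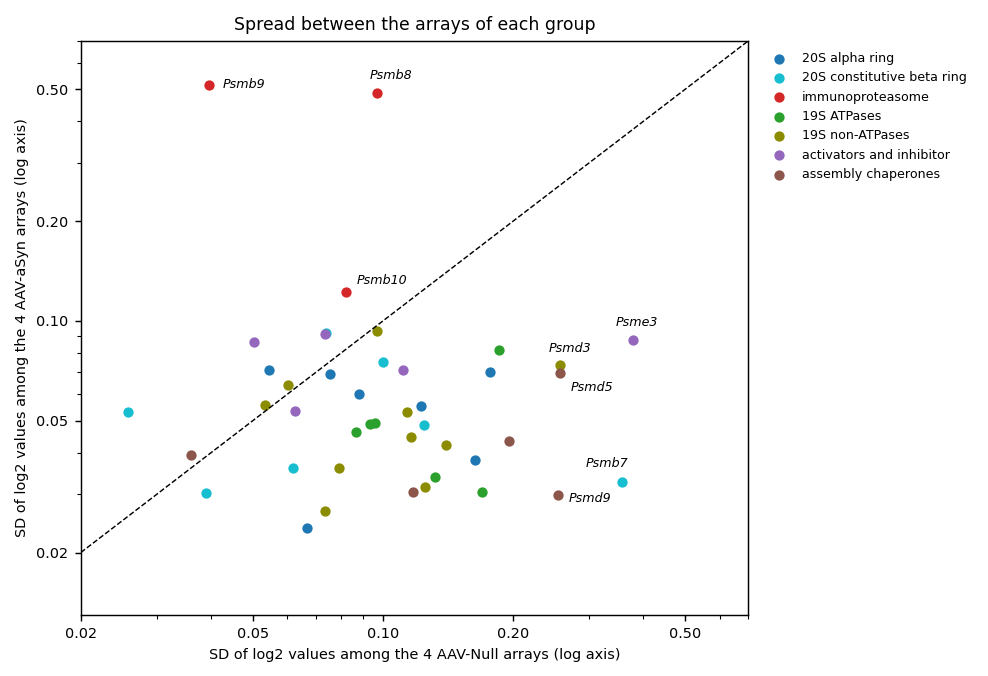
Each point is 1 of the 43 proteasome genes, placed by the SD of its log2 values among the 4 AAV-Null arrays and among the 4 AAV-aSyn arrays, both on log axes, and the dashed line marks equal SDs. *Psmb8* and *Psmb9* lie far above the line, and *Psmb7*, *Psme3*, *Psmd3*, *Psmd5* and *Psmd9* lie far to the right of the others, below it.

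The interferon-inducible genes of the complex are *Psmb8*, *Psmb9*, *Psmb10*, *Psme1* and *Psme2*, and all 10 pairs of them were compared over the 8 arrays. *Psmb8* and *Psmb9* had r = 0.88 (exact permutation p = 0.0177, adjusted over the 10 pairs 0.0885) and Spearman's rho = 0.69 (exact permutation p = 0.0694, adjusted 0.347), so the pair did not pass the adjustment. Without AAV-aSyn replicates 1 and 3, the arrays farthest from the median of *Psmb8*, r was 0.65. The relation thus rests in part on those arrays, but their removal also narrows the range of *Psmb8*, which by itself can lower r. Over the AAV-Null arrays alone r was -0.72, and over all arrays with each group's mean taken out it was 0.90. *Psmb10* and *Psme1* had r = 0.92 (exact permutation p = 0.00345, adjusted 0.0345) and rho = 0.76 (exact permutation p = 0.0368, adjusted 0.347), so r passed the adjustment and rho did not. Without AAV-Null replicate 1 and AAV-aSyn replicate 1, the 2 arrays farthest from the median of *Psmb10*, r was 0.41, so its size rests on those arrays, whose removal also narrows the range of *Psmb10*. For this pair r was 0.87 over the AAV-Null arrays alone and 0.95 with the group means taken out. The other 8 pairs had r from 0.17 to 0.69, with exact permutation p-values of 0.0714 or more.

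*Tap1*, the neighbour of *Psmb9*, had log2 levels of 6.09, 6.24, 6.38 and 6.22 in AAV-Null and 6.54, 6.24, 5.64 and 5.92 in AAV-aSyn rats. AAV-aSyn replicate 1 was highest and replicate 3 lowest, as for *Psmb8* and *Psmb9*. *Tap2*, which encodes the partner of *Tap1* in the transporter, did not share that order: its levels were 9.35, 9.39, 9.18 and 9.39 in AAV-Null and 7.41, 9.20, 9.005 and 9.31 in AAV-aSyn rats, with replicate 1 lowest. *Irf1*, a transcription factor that induces the immunoproteasome, stood at 10.17, 10.03, 9.82 and 10.18 in AAV-Null and 10.57, 9.99, 9.92 and 10.02 in AAV-aSyn rats, and AAV-aSyn replicate 1 was again highest. None of the 6 genes tested of the antigen processing and interferon list had an unadjusted p under 0.05 by limma.

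**Figure D4:**
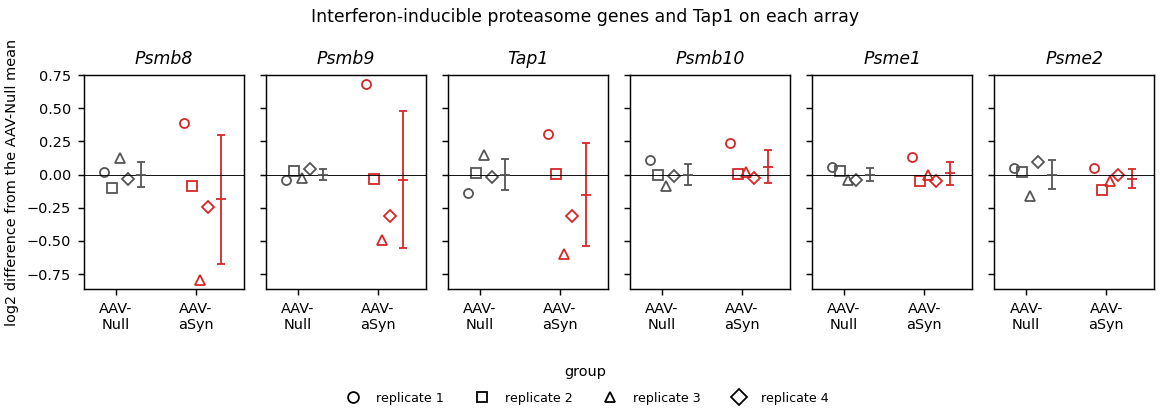
Each panel gives 1 gene, with the log2 difference of each array from the gene's AAV-Null mean, a symbol for each replicate number, and the mean with its SD as a bar beside the 4 points of a group. AAV-aSyn replicate 1 is the highest of its group in every panel, and replicate 3 is the lowest for *Psmb8*, *Psmb9* and *Tap1* only.

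The levels of immune cell markers on the same arrays are given for comparison. Summed levels are sums of linear intensities, so the brightest markers weigh most in them. The summed level of the 8 microglia markers was 25360 to 31618 in AAV-Null and 25139 to 30896 in AAV-aSyn rats, and 0 of the 8 had a p under 0.05 by limma. Their median deviation was 0.16, 0.053, 0.010 and -0.22 on AAV-aSyn replicates 1 to 4, highest on replicate 1 and lowest on replicate 4. Of the 6 T cell markers, *Cd3e*, *Cd2* and *Cd8a* were above background on no array, and the summed level of the other 3 was 302 to 378 in AAV-Null and 247 to 445 in AAV-aSyn rats. The part of these cells in the spread of *Psmb8* and *Psmb9* was not tested.

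No gene of the 19S cap passed the test. Its 16 genes were 8 higher and 8 lower in AAV-aSyn rats, with a median log2 difference of 0.0035. Without AAV-Null replicate 3 they were 9 higher and 7 lower, with a median of 0.027. The 6 ATPases, which unfold the substrate, lay between -0.039 (*Psmc3*) and 0.032 (*Psmc2*), with a median of -0.0095. The second probe of *Psmc1* gave -0.025 beside -0.023 for the brighter one. Without AAV-Null replicate 3 all 6 stayed within 0.081 of 0, although 4 of them changed sign.

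The 10 non-ATPase subunits had 6 higher and 4 lower, with a median of 0.017, and 7 higher and 3 lower, with a median of 0.030, without AAV-Null replicate 3. *Psmd2*, the large scaffold subunit that docks ubiquitin shuttles, was the one gene of the 43 whose groups did not overlap. Its log2 levels were 15.08, 15.15, 14.98 and 15.11 in AAV-Null and 15.17, 15.20, 15.17 and 15.22 in AAV-aSyn rats, so that the lowest AAV-aSyn array lay just above the highest AAV-Null array. The difference was 0.11 (SE 0.067, 95% interval -0.043 to 0.27, limma p = 0.136, adjusted p = 0.954), and its exact permutation p was 0.0286, the smallest the design allows. Without AAV-Null replicate 3 the difference was 0.075.

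*Psmd13*, a lid subunit, was the lowest of the cap. Its arrays stood at 11.34, 11.35, 11.55 and 11.43 in AAV-Null and 11.16, 11.38, 11.30 and 11.31 in AAV-aSyn rats. AAV-aSyn replicate 2 lay within the AAV-Null range and the other 3 below it. The difference was -0.13 (SE 0.082, limma p = 0.160, exact permutation p = 0.114), and -0.083 without AAV-Null replicate 3.

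*Psmd6*, another lid subunit, stood at 14.59, 14.54, 14.37 and 14.63 in AAV-Null and 14.65, 14.57, 14.60 and 14.67 in AAV-aSyn rats, a log2 difference of 0.090 (SE 0.079, limma p = 0.288, exact permutation p = 0.171). The groups overlapped, and without AAV-Null replicate 3 the difference was 0.035. *Psmd12*, also of the lid, stood at 14.55, 14.57, 14.45 and 14.51 in AAV-Null and 14.51, 14.62, 14.63 and 14.63 in AAV-aSyn rats, a difference of 0.076 (SE 0.067, limma p = 0.286, exact permutation p = 0.0857). AAV-aSyn replicate 1 lay among the AAV-Null arrays. *Psmd3*, likewise of the lid, stood at 11.10, 11.31, 11.72 and 11.33 in AAV-Null and 11.18, 11.35, 11.30 and 11.30 in AAV-aSyn rats. Its difference was -0.085 (SE 0.13, limma p = 0.526, exact permutation p = 0.714) with AAV-Null replicate 3, its highest array, and 0.033 without it. *Psmd14*, the deubiquitinase of the lid, and *Psmd4*, a ubiquitin receptor, differed by 0.054 and -0.0058 with all arrays, and by 0.027 and 0.046 without AAV-Null replicate 3.

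The activators open the gate of the core in place of the 19S cap. *Psme1* and *Psme2*, the PA28αβ subunits that interferon induces, had differences close to 0. *Psme1* stood at 13.55, 13.51, 13.44 and 13.45 in AAV-Null and 13.62, 13.44, 13.48 and 13.44 in AAV-aSyn rats, a log2 difference of 0.0091 (SE 0.072, 95% interval -0.16 to 0.18, limma p = 0.902, exact permutation p = 0.943). *Psme2* stood at 13.58, 13.55, 13.37 and 13.62 in AAV-Null and 13.58, 13.41, 13.48 and 13.53 in AAV-aSyn rats, a difference of -0.031 (SE 0.081, 95% interval -0.22 to 0.16, limma p = 0.717, exact permutation p = 0.657). For both genes the ranges of the groups overlapped. The differences were -0.0049 for *Psme1* and -0.083 for *Psme2* without AAV-Null replicate 3.

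*Psme4*, which encodes the nuclear activator PA200, had the smallest limma p of the 43 genes. Its log2 levels were 10.86, 10.85, 10.83 and 10.99 in AAV-Null and 11.14, 10.99, 11.10 and 10.95 in AAV-aSyn rats. The overlap came from AAV-Null replicate 4, whose level reached those of AAV-aSyn replicates 2 and 4. The difference was 0.16 (SE 0.077, a fold of 1.12 with 95% interval 0.991 to 1.27, limma p = 0.0646, adjusted p = 0.909, exact permutation p = 0.0571). Over the 13 processing alternatives the difference was 0.15 to 0.18, and over the 8 fits with 1 array left out 0.13 to 0.20, with an unadjusted limma p of 0.0341 without AAV-Null replicate 4.

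*Psme3*, which encodes the nuclear PA28γ, was decided by 1 array. The log2 levels were 10.68, 10.82, 11.48 and 10.71 in AAV-Null and 10.82, 10.89, 11.03 and 10.93 in AAV-aSyn rats. AAV-Null replicate 3 lay above all the others, and of the other AAV-Null arrays replicate 2 met AAV-aSyn replicate 1 while replicates 1 and 4 lay below all the AAV-aSyn arrays. The difference was -0.0058 (SE 0.18, 95% interval -0.41 to 0.40, limma p = 0.974, exact permutation p = 0.971) with all arrays and 0.18 (SE 0.074, limma p = 0.0447, adjusted p = 0.603) without AAV-Null replicate 3. In that fit 8.14% of all probes had an unadjusted p under 0.05. *Psme3* has 4 pseudogenes in the RefSeq table, and whether they share its probe's sequence was not examined. *Psmf1*, the inhibitor PI31, stood at 12.45, 12.36, 12.50 and 12.38 in AAV-Null and 12.50, 12.39, 12.49 and 12.51 in AAV-aSyn rats, a difference of 0.050 (SE 0.068, limma p = 0.488, exact permutation p = 0.257), and 0.076 without AAV-Null replicate 3.

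The assembly chaperones had 4 genes higher and 1 lower, with a median of 0.042. *Psmd5*, *Psmd9* and *Psmd10* help to build the base of the 19S cap, and *Psmg2* and *Psmg4* the α ring. *Psmd5* stood at 9.95, 10.17, 9.62 and 10.15 in AAV-Null and 10.03, 10.19, 10.08 and 10.12 in AAV-aSyn rats. Its log2 difference was 0.13 (SE 0.13, limma p = 0.335, exact permutation p = 0.429) with AAV-Null replicate 3, its lowest array, and 0.014 without it. *Psmd9* was the lowest of the group at -0.060, and 0.063 without that array. *Psmg4* had 2 probes, with differences of 0.070 for the brighter and -0.32 for the dimmer one, and neither had a p under 0.05. The difference of the brighter probe was -0.026 without AAV-Null replicate 3.

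None of the other genes that the form of the name matched passed the test. *Psmb6l1*, a relative of *Psmb6*, differed by -0.026, *Psmc3ip*, a recombination factor, by -0.011, and *Psme3ip1*, a PA28γ-interacting protein, by 0.0051. *Psma8*, the testis relative of *Psma7*, was above background on 1 of the 8 arrays, and *Psmg4l1* was above background on none and was not tested.

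Around the proteasome, 63 genes of the ubiquitin pathway were listed in 8 groups and 51 of them were tested. A p under 0.05 by limma was found for 3 of the 51 (5.88%, beside 5.64% of all probes), all 3 higher in AAV-aSyn rats, and none passed the adjustment. The median log2 difference of the 51 was 0.037, with 34 higher and 17 lower. The number under that p ranged from 1 to 6 with 1 array left out, with 6 without AAV-Null replicate 3 (where 8.14% of all probes were under it) and 1 without AAV-aSyn replicate 2 or replicate 4.

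*Siah2*, a ubiquitin ligase, had the smallest limma p. On the log2 scale it stood at 6.91, 7.10, 6.66 and 6.79 in AAV-Null and 7.22, 7.42, 7.14 and 7.20 in AAV-aSyn rats, with no overlap. The difference was 0.38 (SE 0.11, limma p = 0.00975, adjusted p = 0.712, exact permutation p = 0.0286). *Usp7*, a deubiquitinase, stood at 12.69, 12.68, 12.63 and 12.68 in AAV-Null and 12.78, 12.89, 12.83 and 12.98 in AAV-aSyn rats, a difference of 0.20 (SE 0.070, limma p = 0.0220, adjusted p = 0.806, exact permutation p = 0.0286). *Nedd4*, a ligase that acts on α-synuclein, stood at 13.09, 13.09, 12.70 and 13.15 in AAV-Null and 13.17, 13.38, 13.27 and 13.33 in AAV-aSyn rats, a difference of 0.28 (SE 0.11, limma p = 0.0376, adjusted p = 0.851, exact permutation p = 0.0286). The groups of *Usp7* and *Nedd4* did not overlap either, which made 3 of the 51 pathway genes, beside 3.83% of all probes. The differences of *Siah2*, *Usp7* and *Nedd4* were 0.31, 0.19 and 0.18 without AAV-Null replicate 3. Next in order of limma p were *Ube2d1*, a conjugating enzyme (0.20, limma p = 0.0554, exact permutation p = 0.0571), *Otud7b*, a deubiquitinase (0.41, limma p = 0.0847, exact permutation p = 0.143), and *Stat3* (0.12, limma p = 0.150, exact permutation p = 0.0857).

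Of the 8 listed regulators of proteasome gene transcription, 6 were tested. *Nfe2l1*, which encodes NRF1, and *Ddi2* had no matched probe, so they were not measured. All 6 tested were higher in AAV-aSyn rats, by 0.11 to 0.17 on the log2 scale, with none under a p of 0.05 by limma. The largest difference was that of *Nfe2l2*, which encodes NRF2, at 0.17 (SE 0.14, limma p = 0.264, exact permutation p = 0.371), and its lowest level was on AAV-Null replicate 3, at 10.68 beside 11.23 to 11.25 on the other AAV-Null arrays. With that array left out all 6 stayed higher, with a median of 0.14. The difference of *Nfe2l2* was then 0.033 and that of *Ngly1*, an enzyme that activates NRF1, 0.040 instead of 0.13, while *Mafg*, a small MAF partner of NRF1 and NRF2, stood at 0.18 instead of 0.11 and was the 1 of the 6 under a p of 0.05 by limma (adjusted p = 0.548). Of the other lists, the activating and conjugating enzymes had 6 of 9 higher, the ligases 4 of 6 and the deubiquitinases 6 of 7, and the 4 subunits and assembly genes with other symbols had 2 higher and 2 lower. The 4 ubiquitin genes lay between -0.073 and 0.036, and all 4 were lower without AAV-Null replicate 3, while the 9 shuttles and unfoldase genes, *Vcp* among them, lay between -0.13 and 0.10. *Adrm1*, a ubiquitin receptor of the 19S cap whose symbol has another form, stood at 10.12 on AAV-Null replicate 3 and at 8.43 to 8.69 on the other AAV-Null arrays, and differed by -0.071 (SE 0.35) with that array and by 0.32 (SE 0.083) without it, where its limma adjusted p was 0.520.

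The dopaminergic markers tested were above background on all 8 arrays, and so was *Tph2*, a marker of serotonergic neurons. All 7 dopaminergic markers tested were lower in AAV-aSyn rats, with a median log2 difference of -0.38, and 4 of them had a p under 0.05 by limma before adjustment, led by *Th*, the tyrosine hydroxylase gene, at -0.52 (SE 0.096, limma p = 0.000604, adjusted p = 0.484, exact permutation p = 0.0286). Markers of neurons in general had a median of 0.038, with 1 of 6 under that p, *Syt1*, a synaptic vesicle gene (-0.40). Astrocyte markers had a median of 0.040 and oligodendrocyte markers of 0.052, with 0 of 6 under it in both lists. With AAV-Null replicate 3 left out the medians were -0.56 for dopaminergic, 0.11 for neuronal, -0.026 for astrocyte and 0.12 for oligodendrocyte markers. Of the 5 genes on the list of serotonergic markers, 4 were higher in AAV-aSyn rats, 2 of them with a p under 0.05 by limma, and *Tph2*, which encodes an enzyme of serotonin synthesis, differed by 2.35. The other, *Slc18a2* (-0.29), is a vesicular transporter gene shared with dopaminergic neurons and is also on the dopaminergic list. Endothelial markers had 1 of 5 under that p, *Kdr* (0.27), and blood markers 0 of 5, all 5 lower, with a median of -0.23. The part of these differences in makeup in the proteasome values was not tested.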

How the data were processed

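RNA samples of the SN, 4 labelled AAV-aSyn and 4 labelled AAV-Null, were hybridised to 8 one-colour Agilent arrays on 1 slide, read in 1 scan. The authors deposited scanner files with each spot's intensity, corrected for background by Feature Extraction (12.0.3.2 per the file headers, 11.5.1.1 per the labels and the submitters' processing notes), and a deposited matrix of quantile normalized log2 values, used here as an alternative. The study's methods state 3 biological replicates a group, where 4 samples a group are held here, so that 4 different rats a group are not established.

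With R 4.3.3, limma 3.58.1 and data.table (1.17.8), the processed intensity was taken to log2 without control spots or spots marked as outliers (8 spots of the proteasome genes). Probes with at least 0.5 of their spots well above background on 1 or more arrays entered the test. After quantile normalization between arrays the spots of each probe were averaged, and the groups were compared by lmFit and eBayes, two-sided, with Benjamini-Hochberg adjustment over 33853 probes at a threshold of 0.05. The procedure was tested on simulated data. The number of arrays limits the precision. Accessions were named through RefSeq (GRCr8), which named 21229 of 45598 probes; *Psmd11*, *Psmg1*, *Psmg3* and 3 other protein-coding symbols of that form had no probe here.

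A gene was represented by its brightest tested probe. Values on every array were given for *Psmb8* to *Psmb10*, *Psme1* to *Psme4*, *Psmf1*, any gene with p under 0.05 and the 10 largest absolute differences, with the extremes of every group and up to 6 other pathway genes by p. The members, role groups and lists were chosen with earlier results of these data known. Same-numbered arrays deviated together with correlations of -0.00217 to 0.27 over probes, so the numbers were not used as pairs.

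Alternatives were scaling to the 75th percentile, cyclic loess, normexp with an offset of 50, other filters on dim probes and the deposited matrix. Further ones were an intensity trend, robust variances, array weights, a replicate block, the mean of a gene's probes, and leaving out each array. A number in the barcode of the file headers, 1 or 2, was also used as a block.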

Additional observations from a re-analysis of the deposited data

Results flagged for a closer look

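There were 86 groups of 4 arrays (43 proteasome genes in each of the 2 groups of rats). Of these, 3 held an array set far apart from the other 3, where a nominal rate of 0.05 flags about 4.3. AAV-Null replicate 3 was set apart for 2 of the 43 genes (4.65%), beside 4.11% of all probes. AAV-aSyn replicate 1 was set apart for 1 of the 43 (2.33%), beside 2.71%. Each of the other arrays was set apart for none of the genes, beside 0.508% to 1.82% of all probes. *Psma3* on AAV-Null replicate 3 had a log2 level of 10.75, beside 10.85 to 10.86 on the other AAV-Null arrays. *Psmb4* on AAV-Null replicate 3 was at 14.52, beside 14.59 to 14.60. *Psmd12* on AAV-aSyn replicate 1 was at 14.51, beside 14.62 to 14.63 on the other AAV-aSyn arrays. All 3 were the lowest of their group. *Psmb8* and *Psmb9*, whose AAV-aSyn arrays were spread on both sides of the AAV-Null arrays, were not among them.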

How the results depend on the processing

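No proteasome probe passed the adjustment under any of the 13 processing alternatives or with any 1 array left out, and the lowest adjusted p of a member by limma was 0.192, with array weights. The number with an unadjusted p under 0.05, 0 of 49 in the report, was 2 under normexp (*Psma1*, *Psme4*; 5.50% of all probes), 3 of 50 without a filter on dim probes (*Psma1*, *Psmd2*, *Psme4*; 5.64%), 1 with an intensity trend (*Psma1*; 5.39%) and 2 with array weights (*Psmb6*, *Psme4*; 17.02%). With 1 array left out it ranged from 0 to 1: *Psme3* without AAV-Null replicate 3 (8.14% of all probes), *Psme4* without AAV-Null replicate 4 (8.28%) and *Psmb9* without AAV-aSyn replicate 1 (5.02%). With the replicate block it was 0. The replicate block changed no call of a member; 2 of the 4 AAV-aSyn arrays correlated best with the AAV-Null array of their own number.

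The median difference of the activators and inhibitor, 0.0091 in the report, was 0.090 with array weights and ranged from 0.00026 to 0.076 with 1 array left out, highest without AAV-Null replicate 3. That of the assembly chaperones, 0.042, was 0.0017 with the mean of a gene's probes, which takes in the dim probe of *Psmg4*. The other pathway genes under a p of 0.05, 3 in the report, were 5 under normexp and 5 with array weights, and 1 to 6 with 1 array left out. The causes of these shifts were not tested. Between the 3 scalings, 39 of the 43 genes kept 1 sign and *Psma5*, *Psmd1*, *Psme3* and *Psmg2* did not. Without AAV-Null replicate 3, 15 of the 43 changed sign. With 4 arrays a group, the intervals of 16 of the 43 genes reached past 1.19-fold.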
